A study of Homo sapiens with 12 samples.

Results

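The 37 transcripts of the human mitochondrial genome were followed across 12 RNA-seq libraries of HEK293T, a human embryonic kidney cell line that carries the SV40 large T antigen. They were taken as every row of the raw count table whose symbol starts with MT-, which gave 37 of 41878 rows, comprising 13 mRNAs, 2 rRNAs and 22 tRNAs. The cells had been transfected with 1 µg of plasmid in Effectene, a lipid reagent. The plasmid was the control vector or one for TRPML3 (gene MCOLN3), a cation channel of endosomes and lysosomes. They were then kept in medium with 10% serum (fed) or without serum (0%) for 4 h (starved), a treatment used to induce autophagy. Each of the 4 groups, vector fed, vector starved, TRPML3 fed and TRPML3 starved, had 3 replicates described by the labels as biological, and the titles number them 1 to 3 without saying what a number marks. Transfection was transient, so each library mixes cells that did and did not take up the plasmid. RNA was selected for poly(A) tails before library preparation.

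Mitochondrial DNA is a small circle that is read from both strands as long precursor RNAs. Most mRNAs, both rRNAs and 14 of the tRNAs come from one precursor, read from the heavy strand, whereas MT-ND6 and 8 tRNAs lie in the opposite direction and come from the light-strand precursor. The tRNAs sit between the longer genes and are cut out, which releases the mRNAs and rRNAs, and most mRNAs and, with short tails, both rRNAs are then polyadenylated in the organelle. All 13 proteins belong to the respiratory chain or to ATP synthase. Mature tRNAs carry no poly(A) tail and are shorter than most sequenced inserts, so the counts of tRNA rows in a poly(A) library are not a measure of mature tRNA.

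The 5 tRNA genes on which the results on tRNA rows turn are printed here from GRCh38, in the direction of the gene and with the anticodon in capitals. MT-TA (alanine, chrM:5587-5655, minus strand), MT-TN (asparagine, chrM:5657-5729, minus strand) and MT-TC (cysteine, chrM:5761-5826, minus strand) are neighbours on the light-strand precursor. MT-TE (glutamate, chrM:14674-14742, minus strand) lies beside MT-ND6, and MT-TH (histidine, chrM:12138-12206, plus strand) lies between MT-ND4 and MT-ND5.
MT-TA: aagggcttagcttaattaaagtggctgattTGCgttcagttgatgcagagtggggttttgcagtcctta
MT-TN: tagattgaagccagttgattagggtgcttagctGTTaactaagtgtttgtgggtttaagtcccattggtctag
MT-TC: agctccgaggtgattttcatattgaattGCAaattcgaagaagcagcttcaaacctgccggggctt
MT-TE: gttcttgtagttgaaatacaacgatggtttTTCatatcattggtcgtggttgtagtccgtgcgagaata
MT-TH: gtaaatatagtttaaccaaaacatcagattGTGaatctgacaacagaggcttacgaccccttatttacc

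Some mRNA genes overlap in the genome and are transcribed as shared RNAs. The shared stretches of those whose levels are compared in pairs below are printed here. Whether the overlaps account for the values of these pairs was not tested. MT-ATP8 and MT-ATP6 share 46 bases, in capitals within chrM:8507-8592, and MT-ND4L and MT-ND4 share 7 bases, in capitals within chrM:10740-10786, both on the plus strand with 20 flanking bases on each side.
MT-ATP8 and MT-ATP6: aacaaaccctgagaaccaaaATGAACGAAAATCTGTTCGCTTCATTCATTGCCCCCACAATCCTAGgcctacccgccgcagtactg
MT-ND4L and MT-ND4: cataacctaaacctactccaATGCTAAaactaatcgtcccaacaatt

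The libraries held between 33101540 and 43700547 counts. MCOLN3 took 0.000934% to 0.00185% of counts in the 6 vector libraries and 0.505% to 5.52% in the 6 TRPML3 libraries, so every library matched its plasmid label. The HEK293T features VIM, NEFL, NEFM, SALL1 and HOXA10 were detected in every library at 19.7 CPM (the count scaled to a library of 1e+06 counts) or more, PAX2 was at least 0.796 CPM and LHX1 at least 1.78 CPM. The markers of other cell types were low or absent, with HBB and UMOD at 0 in all libraries, PTPRC and COL1A2 at 4 counts or fewer, PECAM1 at 0.528 CPM or less and ALB at 2.08 CPM or less.

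The mitochondrial rows together took 1.05% to 5.70% of the counts of a library, a 5.45-fold range. The share was 4.4%, 1.07% and 5.70% in vector fed replicates 1, 2 and 3. It was 3.08%, 1.26% and 4.92% in vector starved replicates 1, 2 and 3. The order of the replicates was the same in both vector groups, with 2 lowest and 3 highest. In TRPML3 fed replicates 1, 2 and 3 the share was 3.37%, 2.52% and 4.83%. In TRPML3 starved replicates 1, 2 and 3 it was 2.81%, 1.05% and 5.69%. That order held in all 4 groups, and the 4 libraries of each number did not overlap with those of the others. By group the means lay close together, at 3.72% ± 2.39 (SD, n = 3) in vector fed, 3.09% ± 1.83 in vector starved, 3.57% ± 1.17 in TRPML3 fed and 3.18% ± 2.35 in TRPML3 starved cells. The largest counting interval (95%, Wilson) spanned 5.69% to 5.71%, so counting error was small beside the spread between replicates, although intervals from reads without molecular identifiers cover counting error only. In bulk RNA a lower share may come from fewer cells with abundant mitochondrial RNA or from less of it per cell, and these cannot be told apart. The share is also relative to all other counts and was measured after poly(A) selection, whose part in the spread was not tested.

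**Figure D1:**
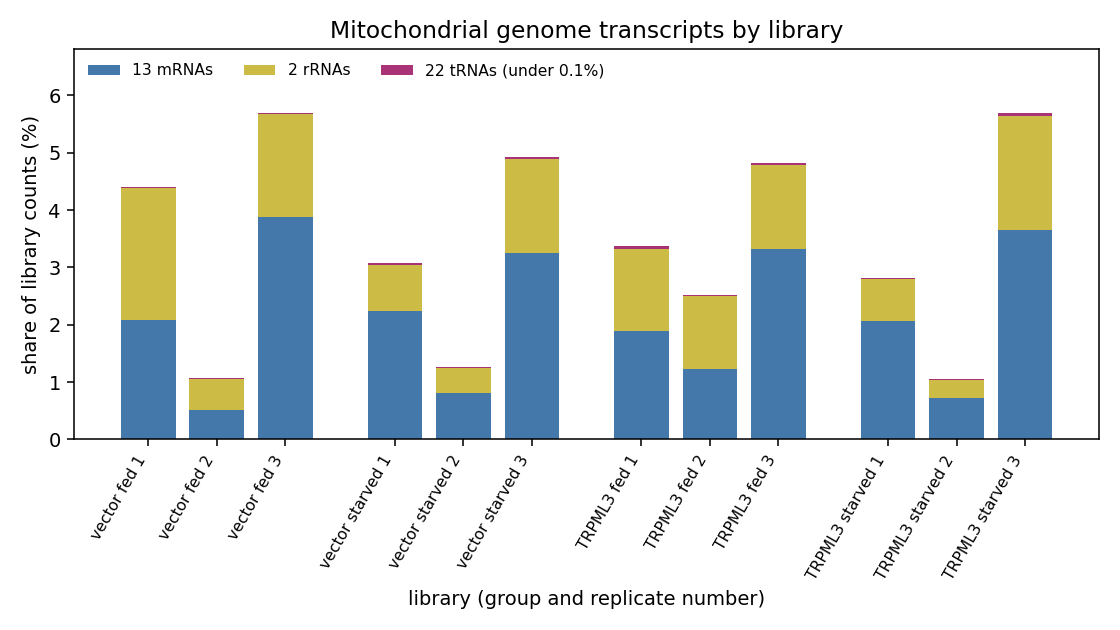
Share of library counts (percent, y axis) in the 13 mRNAs, 2 rRNAs and 22 tRNAs of the mitochondrial genome, stacked for each of the 12 libraries. Within each group the library numbered 2 is lowest and the library numbered 3 highest, with totals from 1.05% to 5.70%.

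All 13 mRNAs were lowest in number 2 and highest in number 3 as means over the 4 libraries of a number. MT-CO2, a core subunit of cytochrome c oxidase (complex IV), had the highest log2 difference of them. Its level was 1331, 267 and 3183 CPM in vector fed replicates 1, 2 and 3, and 1430, 459 and 2904 CPM in vector starved replicates 1, 2 and 3. In TRPML3 cells the 3 values were 1146, 637 and 2714 CPM with serum and 1370, 468 and 2736 CPM without. The 4 libraries numbered 2 thus reached at most 637 CPM, the 4 numbered 1 lay between 1146 and 1430 CPM, and the 4 numbered 3 had at least 2714 CPM. The ratio of number 3 to number 2 was 11.9 in vector fed, 6.33 in vector starved, 4.26 in TRPML3 fed and 5.85 in TRPML3 starved cells.

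With group and number in one edgeR quasi-likelihood model over all 12 libraries, MT-CO2 was higher in number 3 than in number 2 by 2.76 ± 0.24 on the log2 scale (SE, adjusted p = 0.0216). Of the 35 mitochondrial rows tested, 11 passed an adjusted p of 0.05, all higher in number 3, against 14 of 18030 genes tested, which is 0.0776%. The 11 were 10 mRNAs and MT-TR, the arginine tRNA. The rows of one organelle RNA pool move together and are not 35 separate observations. The pattern by number was known from earlier results of these data, so these values describe it and are no independent test. Other genes called included MTATP6P1, a nuclear copy of mitochondrial sequence, which was higher in number 3, and OSTN, which was lower, both named after their values were seen. The number of mitochondrial calls rested on single libraries. It ranged from 0 to 15 when 1 library was left out, and was 0 in 9 of these 12 fits, the exceptions being those without vector fed replicate 2 (5 calls), TRPML3 fed replicate 1 (6 calls) and TRPML3 fed replicate 2 (15 calls). Calls over all genes in these 12 fits are not given, so their counts have no background beside them.

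Among the mRNAs of complex IV, MT-CO1 rose by 2.21 ± 0.24 (SE) and MT-CO3 by 2.50 ± 0.26 on the log2 scale in number 3 over number 2, both with an adjusted p of 0.0216 (edgeR). Both subunits of ATP synthase made in the organelle rose, MT-ATP6 by 2.41 ± 0.24 and MT-ATP8 by 2.32 ± 0.25, also at 0.0216. MT-CYB, the only complex III subunit made in the organelle, rose by 2.13 ± 0.26 with an adjusted p of 0.0396 in the same edgeR test. Complex I takes electrons from NADH, and 7 of its subunits are made in the organelle. Of these 7, MT-ND1 (2.25 ± 0.23), MT-ND4L (2.28 ± 0.21), MT-ND4 (2.28 ± 0.28) and MT-ND5 (1.83 ± 0.22) passed the threshold. MT-ND2 (2.27 ± 0.35), MT-ND3 (2.21 ± 0.44) and MT-ND6 (1.68 ± 0.22) did not pass, with adjusted p-values of 0.0974, 0.167 and 0.0508 in edgeR. The rRNAs, the structural RNAs of the mitochondrial ribosome, did not pass either, with differences of 1.73 ± 0.36 for MT-RNR1 (edgeR adjusted p = 0.193) and 1.69 ± 0.42 for MT-RNR2 (0.246). A miss in these rows does not show a smaller difference than in MT-CO2, because the difference between rows was not tested.

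All 35 tested mitochondrial rows had a log2 difference above 0 between number 3 and number 2, against 51.2% of all genes, with a median of 2.23 against 0.01 over all genes. Before adjustment 28 of the 35 had a p under 0.05, against 10.6% of all genes. In 27 of the 35 rows, including all 13 mRNAs, the 4 libraries numbered 3 lay above the 4 numbered 2, which held for 4% of all genes tested. As medians over the tested rows, number 1 lay between the others. Against number 2 it called 0 rows of 35 in edgeR (background 0%, smallest adjusted p = 0.485) with 22 at an unadjusted p under 0.05 (background 2.88%), and DESeq2's Wald test called 13 (background 0.277%). Number 3 against number 1 called 0 rows (background 0%, smallest adjusted p = 0.280) with 21 at an unadjusted p under 0.05 (background 9.75%), and DESeq2 called 10 (background 3.22%). DESeq2 called 27 rows between numbers 3 and 2 (background 4.13%). The median log2 difference of the tested rows was 1.22 for number 1 over number 2 and 0.91 for number 3 over number 1.

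**Figure D2:**
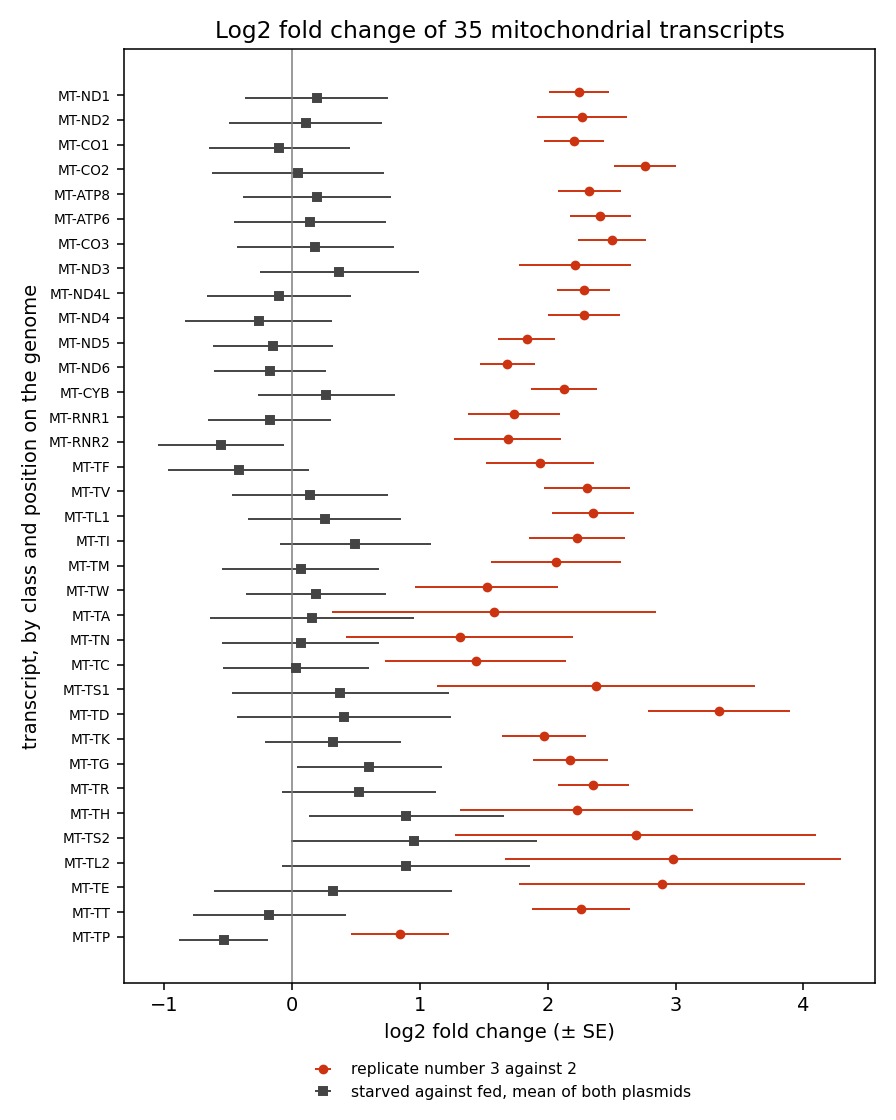
Log2 difference (x axis, bars are standard errors) of the 35 tested mitochondrial rows from edgeR fits over all 12 libraries, with mRNAs first, then rRNAs, then tRNAs. Circles, number 3 against number 2 from the fit with group and number, lie between 0.84 and 3.34. Squares, starved against fed averaged over plasmids from the fit with groups alone, lie between -0.56 and 0.95. The squares have wider errors for the mRNAs, but the 2 fits differ, so errors cannot be compared between circles and squares.

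No mitochondrial row passed the test for plasmid or serum. The first question of the design, whether TRPML3 alters expression in fed cells, gave 0 of 35 rows past an adjusted p of 0.05 (background 0.0111%), with a median log2 difference of 0.06 against -0.01 over all genes. In starved cells TRPML3 gave 0 of 35 (background 0.00555%) with a median of 0.13. Starvation gave 0 of 35 in vector cells (background 0.00555%, median 0.17) and 0 of 35 in TRPML3 cells (background 0%, median 0.12). The test of whether starvation acted differently under the 2 plasmids gave 0 of 35 (background 0%), as did starvation averaged over plasmids (background 0%), and TRPML3 averaged over serum states gave 0 of 35 (background 0.0111%). In all 7 edgeR comparisons 0 of the 35 rows had an unadjusted p under 0.05, and DESeq2 also called 0 rows, where it called between 27 and 273 genes in all. Its background was 0.167% and 0.239% for TRPML3 in fed and starved cells, 0.239% and 0.549% for starvation in vector and TRPML3 cells, 0.15% for the interaction, and 1.52% and 0.183% for the averaged starvation and TRPML3 differences. Over all genes the share with an unadjusted p under 0.05 was 2.21% and 2.2% for TRPML3 in fed and starved cells, 4.44% and 5.71% for starvation in vector and TRPML3 cells, 2.07% for the interaction, and 9.45% and 2.62% for the averaged starvation and TRPML3 differences. These comparisons share libraries and are not independent of each other.

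The size and sign of these differences depended on the model and on 1 library. With replicate number as a block the calls stayed at 0, and the median of the 35 rows moved from 0.06 to 0.32 for TRPML3 in fed cells, from 0.13 to 0.05 for the plasmid difference without serum and from 0.17 to 0.25 for the serum difference under vector. It moved from 0.12 to -0.16 for the serum difference under TRPML3, from 0.05 to -0.26 for the interaction, from 0.15 to 0.02 for averaged starvation and from 0.13 to 0.06 for averaged TRPML3. The blocked fit had 1 row with an unadjusted p under 0.05 for the serum difference under TRPML3 and 2 such rows for averaged starvation. Without TRPML3 starved replicate 3, the TRPML3 starved library with the highest mitochondrial share, the median was -0.85 for the plasmid difference without serum, -0.75 for the serum difference under TRPML3 and -0.80 for the interaction. In that fit 7, 9 and 8 rows had an unadjusted p under 0.05 in these 3 comparisons, and 0 passed after adjustment. The share of all genes at that level was not taken in this fit or in the blocked one. These counts of rows thus have no background to be judged by.

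The precision of these comparisons also depended on the model. The median SE of the mRNAs was 0.81 on the log2 scale for TRPML3 against vector in fed cells and 0.58 for the averaged starvation difference with groups alone, and 0.26 and 0.18 with number as a block. MT-RNR2, the large-subunit rRNA, differed by -0.56 ± 0.49 (SE) between starved and fed cells averaged over plasmids, with an edgeR adjusted p of 0.796. MT-CYB differed by 0.27 ± 0.54 and MT-CO2 by 0.05 ± 0.67 in that comparison, also with groups alone.

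The share of rRNA in the mitochondrial total was lower in starved than in fed libraries of numbers 1 and 2 and not in number 3. In vector cells it was 52.2%, 49.4% and 31.7% in fed and 26.3%, 34.8% and 33.1% in starved replicates 1, 2 and 3. In TRPML3 cells it was 42.6%, 50.9% and 30.2% in fed and 26.1%, 30.8% and 35% in starved replicates 1, 2 and 3. Fed libraries numbered 3 thus lay among the starved ones, and the ranges of fed (30.2% to 52.2%) and starved (26.1% to 35%) overlapped. The starved minus fed difference was -0.48 on the log2 scale in vector and -0.40 in TRPML3 cells, and by number it was -0.85, -0.61 and 0.14 for 1, 2 and 3. Averaged over plasmids it was -0.44, with a two-sided exact permutation p of 0.045 and 0.135 after Benjamini-Hochberg adjustment over the 6 tests of this kind. Within each plasmid the exact permutation p was 0.3, where 0.1 is the smallest that 3 against 3 libraries allow.

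**Figure D3:**
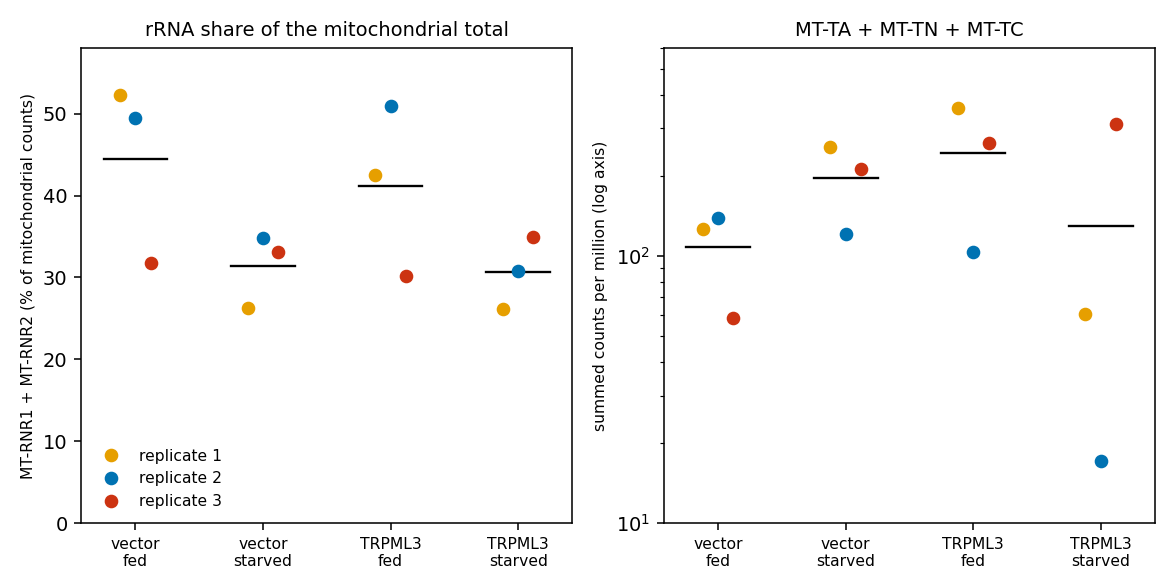
Left, percent of mitochondrial counts in the 2 rRNAs; right, summed CPM (log axis) of the tRNA rows MT-TA, MT-TN and MT-TC. Points are libraries coloured by replicate number and lines are group means. The rRNA share is 30.2% to 52.2% in fed and 26.1% to 35% in starved libraries, and the tRNA sum has a 21.0-fold range in which neither groups nor numbers stand apart.

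MT-RNR2 held the larger part of the rRNA counts in every library. Its level was 19738, 4557 and 14112 CPM in vector fed and 6897, 3592 and 13215 CPM in vector starved replicates 1, 2 and 3. It was 12886, 11504 and 12944 CPM in TRPML3 fed replicates 1, 2 and 3. In TRPML3 starved replicates 1, 2 and 3 it was 5756, 2594 and 17190 CPM. In TRPML3 fed cells number 3 exceeded number 2 by a factor of 1.13, against 3.10, 3.68 and 6.63 in vector fed, vector starved and TRPML3 starved cells. As a share of mitochondrial counts MT-RNR2 was 37.5% ± 11 (SD, n = 3) in vector fed, 25.9% ± 3.14 in vector starved, 36.9% ± 9.48 in TRPML3 fed and 25.1% ± 4.88 in TRPML3 starved cells. By number it was 31.5% ± 12.0 (SD, n = 4) in number 1, 35.4% ± 10.3 in number 2 and 27.2% ± 2.25 in number 3.

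MT-RNR1 is the small-subunit rRNA, transcribed just ahead of MT-RNR2 on the same precursor, and the rRNAs did not keep a fixed ratio. MT-RNR1 was 3246, 713 and 3979 CPM in vector fed and 1207, 807 and 3102 CPM in vector starved replicates 1, 2 and 3. With TRPML3 it was 1477, 1325 and 1610 CPM in the fed and 1603, 630 and 2734 CPM in the starved replicates. The count ratio of MT-RNR2 to MT-RNR1 was 8.04 to 8.72 in the 3 TRPML3 fed libraries and 3.55 to 6.39 in the other 9. TRPML3 fed thus lay apart from the rest in this ratio, a pattern seen after the values and given no test. MT-RNR1 took 4.32% ± 0.962 (SD, n = 3) of mitochondrial counts in TRPML3 fed, 7.01% ± 0.348 in vector fed, 5.53% ± 1.40 in vector starved and 5.51% ± 0.632 in TRPML3 starved cells.

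Within the mRNA pool the shares were steadier than the total. Expressed as percent of the summed 13 mRNAs, complex I subunits took 48.4% to 59.0% over the 12 libraries, complex IV 18.8% to 25.7%, ATP synthase 14.9% to 20.1% and MT-CYB 5.17% to 7.71%. By counts, the highest single shares were those of MT-ND4L (15.8% to 19.5%), MT-CO1 (10.3% to 16.0%) and MT-ND5 (10.1% to 17.3%), and the smallest were those of MT-ND3 (1.5% to 3.80%), MT-CO3 (1.71% to 3.31%) and MT-ND4 (2.02% to 2.97%). The places of MT-ND4L and MT-ND4 in this order are uncertain, since the genes overlap and the assignment of their reads is not known. MT-ND1 varied least in its share, 1.22-fold, and MT-ND3 most, 2.54-fold, while the summed mitochondrial share of the library varied 5.45-fold.

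The share of MT-CYB in the mRNA pool was the one that fed and starved libraries separated. It was 6.64%, 5.94% and 6.27% in vector fed and 7.71%, 7.42% and 6.85% in vector starved replicates 1, 2 and 3. With TRPML3 it was 6.84%, 6.15% and 5.17% in fed and 7.38%, 7.46% and 7.04% in starved replicates. All 6 starved libraries lay above all 6 fed ones, although the highest fed (6.84%) and lowest starved (6.85%) values all but met. The averaged difference was 0.25 on the log2 scale with a two-sided exact permutation p of 0.005, the smallest that the 400 relabelings allow, and an adjusted value of 0.065 over 39 tests (13 mRNAs, each for serum, plasmid and number). None of the 39 tests passed 0.05 after that adjustment, and 7 had an unadjusted p of 0.05 or less, 3 of them for serum, 4 for number and 0 for plasmid. The place of MT-CYB depended on the denominator. Against the mean log2 count of the 13 mRNAs, its serum difference was 0.21 (exact permutation p = 0.025, adjusted 0.1625). On that scale MT-ATP8 had the lowest p for serum (exact permutation p = 0.015, adjusted 0.146).

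By share of the mRNA pool MT-ATP8 was next for serum, at 9.79% to 12.1% in fed and 11.7% to 13.1% in starved libraries. The difference was 0.22 on the log2 scale (exact permutation p = 0.01, adjusted 0.0975), and the ranges overlapped. For number the lowest p-values were those of MT-CO2 and MT-ND6 (each exact permutation p = 0.00463, the smallest possible, adjusted 0.065). MT-CO2 took 6.37% ± 0.233 (SD, n = 4) of the mRNA pool in number 1, 5.63% ± 0.629 in number 2 and 8.20% ± 0.582 in number 3. MT-ND6, the one light-strand mRNA, moved the other way, with 5.39% ± 0.944 in number 1, 6.0% ± 0.670 in number 2 and 4.12% ± 0.370 in number 3. This was not particular to the light strand, since the heavy-strand MT-ND5 also had its lowest mean in number 3. It took 13.9% ± 1.49, 14.6% ± 2.49 and 11.1% ± 0.777 in numbers 1, 2 and 3 (exact permutation p = 0.0278, adjusted 0.195). Shares of one pool sum to a fixed total, so a gain in one is a loss in others.

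**Figure D4:**
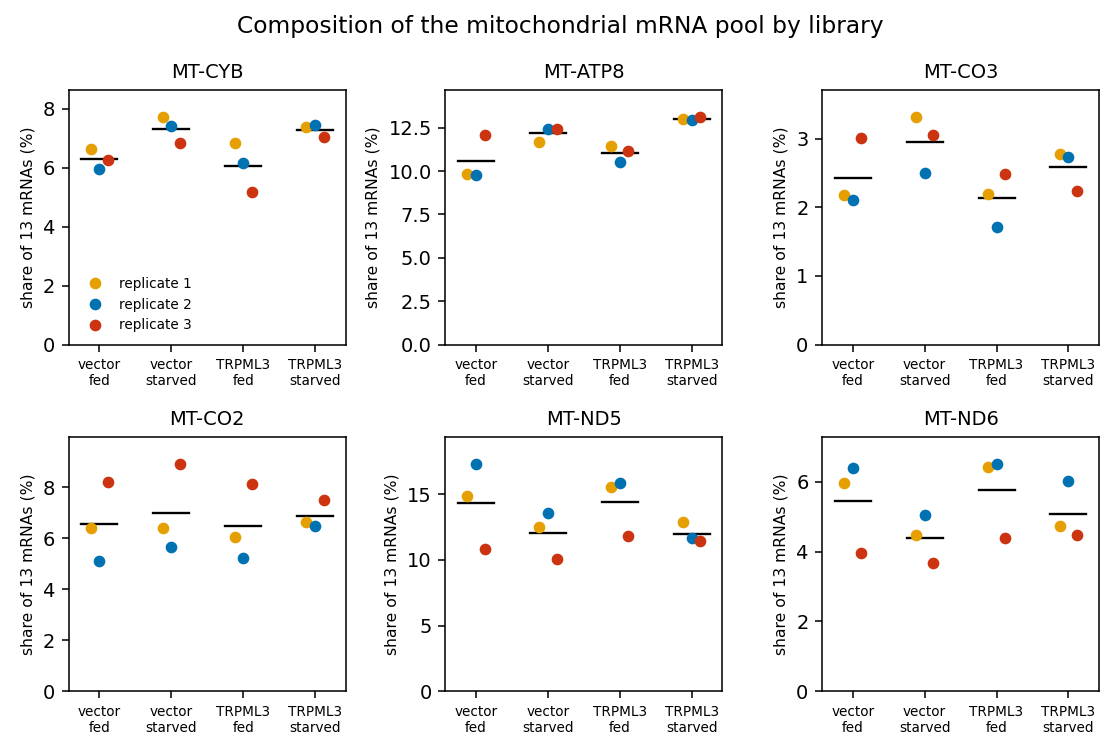
Percent of the summed counts of the 13 mitochondrial mRNAs taken by 6 of them, with 1 point per library, coloured by replicate number, and a line at each group mean. In the MT-CYB panel all starved libraries (6.85% to 7.71%) lie above all fed ones (5.17% to 6.84%), and in the MT-CO2 panel number 3 is highest in each group.

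Shares of the whole mitochondrial total were tested for serum, plasmid and number as well, and none of these 39 tests passed 0.05 after adjustment. MT-CYB took 3.45% ± 0.536 (SD, n = 6) of mitochondrial counts in fed and 4.99% ± 0.465 in starved libraries (exact permutation p = 0.005, adjusted 0.0975). MT-ATP8 took 6.14% ± 1.55 in fed and 8.57% ± 0.566 in starved, MT-ATP6 3.35% ± 0.782 and 4.4% ± 0.360, and MT-ND1 2.75% ± 0.405 and 3.67% ± 0.250, with exact permutation p-values of 0.015, 0.03 and 0.01 and adjusted values of 0.117, 0.167 and 0.0975. The values of MT-ND5, 7.91% ± 0.650 in fed and 8.20% ± 1.06 in starved, and of MT-ND4, 1.53% ± 0.355 and 1.60% ± 0.328, differed by less than their spread (exact permutation p = 0.62 and 0.695). By number, MT-CO2 took 3.98% ± 0.908 (SD, n = 4) of mitochondrial counts in number 1, 3.28% ± 0.951 in number 2 and 5.48% ± 0.470 in number 3. MT-ND5 took 8.55% ± 1.07, 8.22% ± 0.432 and 7.39% ± 0.621 in numbers 1, 2 and 3.

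Compared per length, the rows of overlapping genes stood far apart. As mean CPM per kilobase over the 12 libraries, MT-ND4L reached 12581 and MT-ATP8 12254, above MT-RNR2 at 6681. MT-CO2 followed at 2272, MT-ATP6 at 1994, MT-RNR1 at 1959, MT-ND6 at 1939 and MT-CO1 at 1885. MT-CO3 (712) and MT-ND4 (396) were the lowest of the mRNAs on this scale, and the other 5 lay between 1158 (MT-ND1) and 1469 (MT-ND3). MT-ATP8 and MT-ATP6 lie on one RNA, as do MT-ND4L and MT-ND4, yet the level per kilobase of MT-ATP8 was 5.22 to 6.91 times that of MT-ATP6 and that of MT-ND4L was 25.5 to 40.9 times that of MT-ND4 in each of the 12 libraries. How reads across the overlaps printed above were assigned is not given in the sources used here, and its part in these ratios was not tested, so the order of levels among these 4 rows is uncertain.

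**Figure D5:**
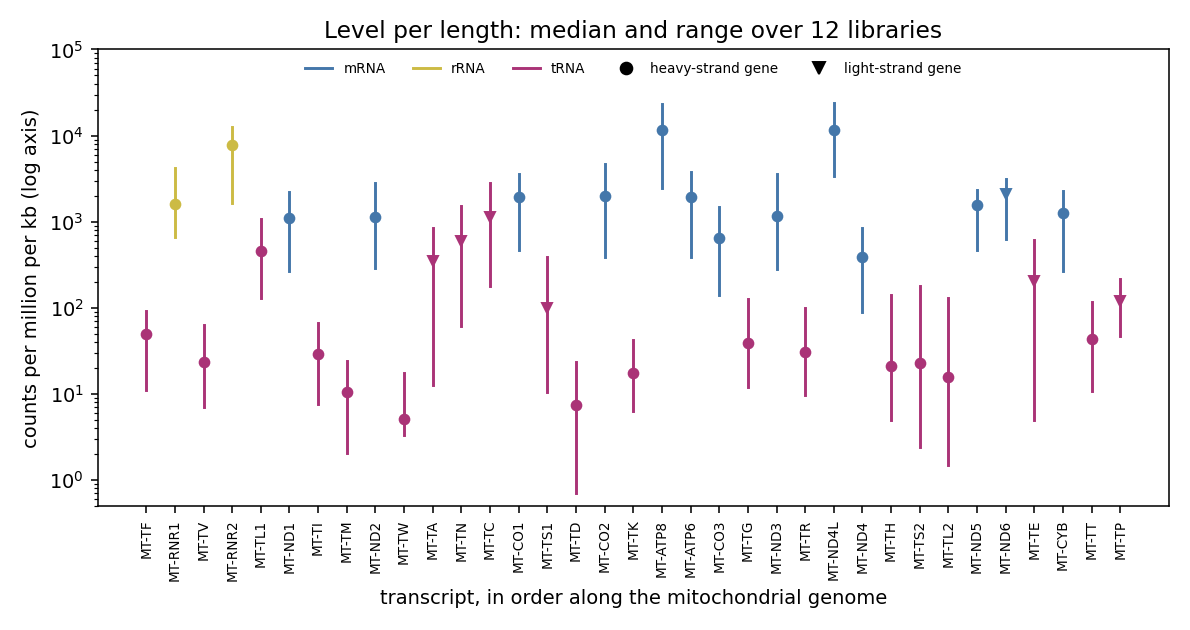
Level per length (CPM per kilobase, log axis) of each mitochondrial row with at least 10 counts on average, in genome order, as the median (symbol) and range (line) over 12 libraries. MT-ND4L and MT-ATP8 have the highest medians, and light-strand tRNA rows (triangles) and MT-TL1 lie above the other tRNA rows.

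MT-ND6 lies on the light strand, next to MT-ND5 on the heavy strand. Its level was 1241, 334 and 1533 CPM in vector fed replicates 1, 2 and 3 and 1213, 796 and 1459 CPM in TRPML3 fed replicates. Without serum it was 1000, 407 and 1195 CPM in vector and 976, 434 and 1627 CPM in TRPML3 replicates. Library by library MT-ND6 followed MT-ND5, at a count ratio of 0.358 to 0.516 and a correlation of log2 CPM of 0.99 over 12 libraries, which share their total mitochondrial content. Whether the counting used the strand is not stated, so reads of a gene and of RNA from the opposite strand cannot be told apart. Among all pairs of mRNAs this correlation was 0.86 to 1.00, and between mRNAs and MT-RNR2 it was 0.65 to 0.87.

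The tRNA rows took 0.00388% to 0.0541% of library counts, and some of them, but not all, varied apart from the mRNAs. The 8 light-strand tRNAs held 51.2% to 87.4% of the tRNA counts of a library. Among these rows of 59 to 75 bases the highest mean levels were those of MT-TC (88.8 CPM), MT-TN (52.4 CPM), MT-TL1 (37.0 CPM), MT-TA (27.7 CPM) and MT-TE (18.7 CPM), and of these only MT-TL1, a leucine tRNA between MT-RNR2 and MT-ND1, lies on the heavy strand. The other 13 heavy-strand tRNAs had means of 0.489 to 3.89 CPM. MT-TQ and MT-TY had too few counts to be tested, with MT-TQ at 0 in 5 libraries and at 1 count in 7, and MT-TY at 1 count in 11 libraries and 40 in vector starved replicate 3.

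The neighbours MT-TA, MT-TN and MT-TC were high or low together. Their summed level was 126, 139 and 58.4 CPM in vector fed and 255, 121 and 212 CPM in vector starved replicates 1, 2 and 3. With TRPML3 it was 359, 104 and 264 CPM in fed and 60.5, 17.1 and 312 CPM in starved replicates. This 21.0-fold range ran in no common order, since number 3 was lowest of the 3 in vector fed cells and highest in TRPML3 starved cells, and neither serum nor plasmid parted the libraries. The correlations of log2 CPM over the 12 libraries were 0.89 to 0.98 among these 3 rows but 0.24 to 0.57 between them and the mRNAs.

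MT-TE, beside MT-ND6, went with them (0.82 to 0.95) rather than with the mRNAs (0.43 to 0.58), and ranged 126-fold, from 0.341 CPM in TRPML3 starved replicate 2 to 42.8 CPM in TRPML3 starved replicate 3. MT-TL1, in contrast, followed the mRNAs with a correlation of 0.91 to 0.98, at 9.70 to 22.2 CPM in number 2, 32 to 41.0 CPM in number 1 and 47.2 to 79.8 CPM in number 3. Other heavy-strand tRNA rows also followed the mRNAs, among them MT-TV (0.87 to 0.94) and MT-TR (0.81 to 0.90). These rows were picked after their values were seen. The heavy-strand cluster MT-TH, MT-TS2 and MT-TL2, chosen after its values were seen, correlated at 0.97 to 0.99 within itself and at 0.77 to 0.86 with MT-TA, MT-TN and MT-TC. Its summed level ranged 49.7-fold, from 0.597 CPM in TRPML3 starved replicate 2 to 29.6 CPM in TRPML3 starved replicate 3. These correlations are descriptions over libraries that share group, number and mitochondrial content.

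Copies of mitochondrial sequence in the nuclear genome can share reads with the MT- rows. Any rows named MTRNR2L, copies of MT-RNR2, are not in the totals that follow. The table held 404 rows named as pseudogenes of mitochondrial mRNAs or rRNAs, 150 of them with counts, and together they amounted to 0.688% to 1.54% of the mitochondrial counts. Among them MTATP8P1, MTATP6P1 and MTND2P28, singled out for their counts, held 91.6% of the counts of these rows. MTATP8P1 had 2.67% to 8.48% of the counts of MT-ATP8, MTATP6P1 2.90% to 15.1% of those of MT-ATP6, and MTND2P28 3.67% to 17.2% of those of MT-ND2. Counts of these 3 genes are therefore less certain than those of MT-CO1, whose copy MTCO1P12 had 0.0503% to 0.641% of its counts.

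Other shares of the libraries were set beside the mitochondrial one. Cytosolic ribosomal protein genes (86 rows) took 6.22% to 8.33% of counts, at means of 7.17%, 7.37% and 7.24% in numbers 1, 2 and 3. The nuclear-retained RNAs MALAT1 and NEAT1 took 0.0520% to 0.216%, at means of 0.129%, 0.149% and 0.173%, and 20831 to 23732 rows were detected. Small nuclear and nucleolar RNA rows took 0.00623% to 0.0125%, at means of 0.00727%, 0.00678% and 0.00979%, the same order as the mitochondrial means. Their share was highest in number 3 in each group. Number 1 lay above number 2 in vector fed cells only, at 0.00942% against 0.00623%, and below it in the other groups, unlike the mitochondrial share. Histone genes took 0.00508% to 0.0172%, at means of 0.00783%, 0.00965% and 0.0123%. All these ranges overlapped between numbers, and their part in the mitochondrial differences was not tested. MCOLN3 took 0.648%, 0.505% and 3.70% of counts in TRPML3 fed replicates 1, 2 and 3, the same order as the mitochondrial share there. In TRPML3 starved replicates 1, 2 and 3 it took 3.95%, 5.52% and 1.57%, the reverse of the mitochondrial order, and its part in the mitochondrial differences was not tested.

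Nuclear genes that ran most like the mitochondrial share were sought among 14156 genes, as the correlation of log2 CPM with the log2 share over the 12 libraries after group means were removed. The 8 highest were PRKCSH (0.99), FPGT-TNNI3K (0.95), SH3GLB2 (0.95), MTATP8P1 (0.95), GLIPR2 (0.94), HNRNPD (0.94), MTND1P23 (0.94) and MTND4P12 (0.93), of which 3 are nuclear copies of mitochondrial genes. PRKCSH, the beta subunit of glucosidase II, was 19.4 to 125 CPM in number 2, 79.6 to 191 CPM in number 1 and 132 to 228 CPM in number 3. The 4 lowest were SKA2 (-0.97), MAPK8IP1 (-0.95), HSPA6 (-0.93) and ARID5A (-0.92). These correlations describe 12 libraries that share group and number and carry no test.

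Nuclear genes supply the proteins that copy, transcribe, process and degrade mitochondrial nucleic acids. All 47 factors in the list were tested and 0 passed an adjusted p of 0.05 in edgeR in any of the 10 comparisons. Between numbers 3 and 2, POLRMT, the mitochondrial RNA polymerase, differed by 0.48 ± 0.25 on the log2 scale (SE), TFAM, which packages the DNA and starts transcription, by 0.07 ± 0.16, TFB2M by 0.12 ± 0.17 and the elongation factor TEFM by 0.25 ± 0.26. LRPPRC and SLIRP, which together bind and stabilise mitochondrial mRNAs, differed by 0.21 ± 0.28 and 0.09 ± 0.16. The median over the list was 0.09 against 0.01 over all genes, and 3 of 47 had an unadjusted p under 0.05 against 10.6% of all genes.

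For starvation averaged over plasmids, 8 of the 47 factors had an unadjusted p under 0.05 (6 higher, 2 lower), against 9.45% of all genes. ELAC2, the enzyme that trims the 3′ end of tRNAs, differed by 0.73 ± 0.24 (SE, edgeR adjusted p = 0.389) and MTPAP, the mitochondrial poly(A) polymerase, by -0.92 ± 0.28 (0.367). FASTKD5 and TBRG4, RNA-binding proteins of the organelle, differed by 0.10 ± 0.11 and 0.19 ± 0.23. The decay factors SUPV3L1, a helicase, and PNPT1, an exonuclease, differed by 0.45 ± 0.35 and 0.02 ± 0.86, and PNPT1 ranged from 1.29 to 85.9 CPM over the libraries.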

How the data were processed

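The deposited table holds raw counts per gene row for 12 libraries, which were the values analysed, and the deposited table of normalized signal equals these counts divided by 1 size factor per library and served as an alternative only. Per the submitters' processing notes, FastQC, fastp, HISAT2, StringTie, DESeq2 and GRCh38 were used, without roles or versions. The annotation, counting mode and use of strand are not given in the sources used here, and where StringTie supplied the counts they may be derived from coverage. Coordinates, lengths and sequences came from GENCODE 29 on GRCh38, in which all 37 identifiers matched. Counts were tested in edgeR 4.0.16 (R 4.3.3) with TMM scaling, its filter on low counts and Benjamini-Hochberg adjustment over 18030 genes, with 1 coefficient per group (8 residual degrees of freedom) or group plus replicate number (6). DESeq2 1.42.0, other scalings and filters, and each library left out were alternatives. Shares were tested by exact permutation of labels within strata. The scripts were tested on simulated data.

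All 13 mRNAs, both rRNAs, the 5 tRNA rows with the highest means and 12 expression factors were named by rule. The members, the lists and the comparison by number were chosen with earlier results of these data known. Replicate numbers were checked for pairing by the correlation of deviations from group means, which was 0.11 to 0.33 between plasmids in fed cells, 0.09 to 0.32 in starved cells and -0.08 to 0.01 between serum states. By the rule that every pair exceeds 0.1, the numbers paired the samples only for plasmid in fed cells. No 2 libraries agreed within counting noise. P-values measure the spread between these samples. A gene called outside the mitochondrial rows is not reported here.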

Additional observations from a re-analysis of the deposited data

How the results depend on the processing

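The 7 comparisons of plasmid and serum called 0 mitochondrial rows under every scaling, filter, test and left-out library that was run, and 0 with replicate number as a block. With the block the rRNA share differed by -0.441 between starved and fed cells, the same as without it. Its exact permutation p was 0.125 with the block and 0.045 (adjusted 0.135) without, and the block changed no call. The number of rows called between numbers 3 and 2, 11 as reported, was 7 with library size alone, 7 with no filter, 0 at an adjusted p under 0.01 and 27 in DESeq2, which called 13 for 1 against 2 and 10 for 3 against 1 (745, 50 and 581 of all genes). Leaving out 1 library at a time gave 0 to 15, with 5 without vector fed replicate 2, 6 without TRPML3 fed replicate 1, 15 without TRPML3 fed replicate 2 and 0 without any of the other 9. Calls over all genes are given only for the reported fit and DESeq2, so the other counts have no background beside them. In these data all named mRNAs and rRNAs stayed higher in number 3 than in number 2 in each of 20 alternatives, by 1.31 to 3.02 on the log2 scale. Leaving out 1 library could hardly change that sign, since in these rows every library of number 3 lay above every library of number 2. An adjusted p under 0.05 was reached in at most 11 of the 20 for any of these rows, and in 1 for each rRNA. The log2 difference in mitochondrial share was -0.295 for starvation and 0.0706 for TRPML3 over all libraries (exact permutation p = 0.645 and 0.915). Over the fits that left out libraries it ran from -0.667 to 0.0276 for starvation and from -0.301 to 0.393 for TRPML3. The TRPML3 difference was -0.136 without replicate 2, an alternative chosen after seeing the data. The variance of the 3 number means of that log2 share ran from 0.442 to 0.766. The rRNA share differed by -0.185 to 0.0325 for TRPML3 and by -0.731 to -0.238 for starvation over the same fits. Depth limits only the tRNA rows, of which 2 had too few counts to test.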
